A study of Mus musculus with 6 samples.

Results

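The Hox genes encode homeodomain transcription factors and lie in 4 clusters, Hoxa, Hoxb, Hoxc and Hoxd. Chromatin accessibility was examined by ATAC-seq, in which a transposase inserts sequencing adaptors into open DNA, at 38 Hox genes among 21851 protein-coding genes. They are the members of these clusters in the GENCODE annotation, with 1 gene of the rule not analysed here. All peaks within each cluster and 50 kb to either side were taken as well. Overlapping peaks of the 6 libraries merged into 194610 regions across the genome, and 220 of them lay in the cluster windows, 52 in Hoxa, 62 in Hoxb, 68 in Hoxc and 38 in Hoxd.

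Libraries were made from primary adipocytes of wild type C57 mice after 7 days of differentiation of the stromal vascular fraction, the mixed non-fat cells of an adipose depot. The study's methods state male C57BL/6J animals 3 to 4 weeks old for the inguinal cells. Its reporting summary gives male C57BL/6 mice 4 weeks old for fat-derived cells of both depots, without naming these libraries. Beige (2 libraries) and white (2 libraries) adipocytes came from inguinal subcutaneous fat, and brown adipocytes (2 libraries) came from brown adipose tissue. Beige and brown cells were induced with insulin, 5 μM dexamethasone, 0.5 mM IBMX, 1 μM rosiglitazone and 1 nM T3. White cells were induced with insulin, 0.5 mM IBMX and 1 μM dexamethasone, and received neither rosiglitazone nor T3. All labels give 5 μg/ml insulin, while the study's methods give other amounts for beige and white. Brown and beige thus shared a medium and differed in depot, beige and white shared a depot and differed in medium, and brown and white differed in both. The brown libraries are not described in the study's paper, so the depot and any difference in handling from the other libraries cannot be told apart. The study's reporting summary calls the beige and white libraries biological replicates, and nothing says so of the brown ones. Cultures were bulk, so fewer cells with an open site and a weaker opening in every cell cannot be told apart.

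Hox genes are numbered by paralog group, and genes of one number in different clusters are copies of one ancestral gene. The low-numbered genes lie at one end of a cluster and are used in the head and neck, the high-numbered ones lie at the other end and are used in the trunk, limbs and tail, an order known as colinearity. Adult fibroblasts and fat precursors keep a Hox pattern of the body position they came from, and fat depots differ in it. In the following, the anterior section of a cluster holds groups 1 to 4, the central section groups 5 to 8 and the posterior section groups 9 to 13.

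The DNA is given for 5 sites that differed by presence of a peak between conditions. Each is shown as 100 bp to either side of the summit on the plus strand of GRCm38 (the build mm10), read from RefSeq. Regions open in both brown and no inguinal library, or the reverse, were ranked by peak height within a cluster, and sites on untranslated exon sequence were left out. The Hoxc9 site was added after its values were seen. Capitals mark a match to a HOX-PBX site, which was searched as TGATTNAT on both strands. Distances are given from the start site of the named gene, with negative values upstream. The Hoxa2 site lay at −308 bp, in an intron of the overlapping gene Gm28308 (chr6:52165039-52165239), the Hoxb2 site at 341 bp, in coding exon sequence (chr11:96351872-96352072), and the Hoxc5 site at 1288 bp, in an intron (chr15:103015003-103015203), and these were open in both brown libraries alone. An intergenic site at −1671 bp of Hoxb9 (chr11:96269686-96269886) was open in all 4 inguinal and in no brown library. The Hoxc9 site at 229 bp, which is intronic (chr15:102977161-102977361), was open in both beige libraries and white replicate 1.
Hoxa2, brown only: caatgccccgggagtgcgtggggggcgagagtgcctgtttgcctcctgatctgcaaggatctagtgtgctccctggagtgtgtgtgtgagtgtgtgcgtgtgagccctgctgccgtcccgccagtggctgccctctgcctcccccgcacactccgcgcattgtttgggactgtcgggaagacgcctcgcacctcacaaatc
Hoxb2, brown only: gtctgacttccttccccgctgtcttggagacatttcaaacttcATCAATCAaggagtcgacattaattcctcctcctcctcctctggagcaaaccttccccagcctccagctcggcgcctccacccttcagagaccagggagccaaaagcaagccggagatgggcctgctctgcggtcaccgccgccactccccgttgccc
Hoxc5, brown only: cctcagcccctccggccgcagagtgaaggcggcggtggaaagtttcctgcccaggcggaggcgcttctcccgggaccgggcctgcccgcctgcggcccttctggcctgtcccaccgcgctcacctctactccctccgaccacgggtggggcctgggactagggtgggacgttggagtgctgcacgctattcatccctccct
Hoxb9, inguinal only: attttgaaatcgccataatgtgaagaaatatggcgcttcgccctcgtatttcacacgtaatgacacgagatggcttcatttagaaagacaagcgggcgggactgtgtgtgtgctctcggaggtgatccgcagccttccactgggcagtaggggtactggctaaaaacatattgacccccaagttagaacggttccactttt
Hoxc9, beige and 1 white: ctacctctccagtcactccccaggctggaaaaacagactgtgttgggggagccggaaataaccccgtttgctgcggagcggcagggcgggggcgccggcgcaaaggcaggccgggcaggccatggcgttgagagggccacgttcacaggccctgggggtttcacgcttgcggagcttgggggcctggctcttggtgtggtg
The 1 match stood in the Hoxb2 window. Such a match was present in 3.64% of the windows of all 194610 regions and in 9 of the 220 Hox windows, 4.09%, so that its presence in Hoxb2 is a description of that window only.

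The peak lists held 109143 to 127490 peaks per library and covered 1.34% to 1.73% of the genome. The 2 shortest lists were the brown ones. The lists give no read counts. The study's reporting summary states the sequencing depth of the beige and white libraries, with fewer mapped reads in beige than in white, and depth is not given for brown in the sources used here. The part of depth in the results was not tested. Labels were checked against marker promoters. The adipocyte markers Adipoq, Plin1, Fabp4, Pparg, Cidec and Lpl had a peak in all 6 libraries. Ucp1, the uncoupling protein of thermogenic fat, had one only in the brown pair, at low percentiles of peak height (9.12 and 4.23). Zic1, a brown depot gene, was open in the brown pair and also in beige replicate 2. The other listed brown depot genes, Lhx8, Ebf2 and Prdm16, and the subcutaneous depot genes Tbx15, Shox2 and En1 were open in all 6 libraries and did not separate the depots by presence. Prdm16 ranked highest in white (percentiles 48.0 and 31.1, against 15.2 and 11.3 in brown), and En1 ranked higher in brown (63.9 and 64.3) than in any inguinal library (28.7 to 56.7). Lhx8 also ranked higher in brown (48.5 and 55.8) than in any inguinal library (4.43 to 24.9). Brown and inguinal values overlapped at Ebf2, Tbx15 and Shox2. Of other cell types, Ptprc and Csf1r (macrophage), Cdh5 (endothelium) and Myf5, Myog and Ckm (muscle) had none in any library, Myod1 (muscle) had one in white replicate 2, while the other listed macrophage and endothelial genes had one in all 6, and 3 of 4 progenitor genes did too.

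A promoter counted as open when the summit of a peak lay within 1 kb of a start site. Both libraries of a condition were open at 30 of 38 Hox genes in beige, 26 in white and 27 in brown adipocytes. Over all genes these shares were 64.9%, 64.1% and 64.2%, against 78.9%, 68.4% and 71.1% of the Hox genes. In all 6 libraries 23 Hox genes were open, or 60.5%, close to the 62.0% of all genes. Hoxb3 and Hoxd12 had no promoter peak in any library, and the other 13 were open in 1 to 5 libraries. No promoter peak was shared by 2 Hox genes in any library.

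**Figure D1:**
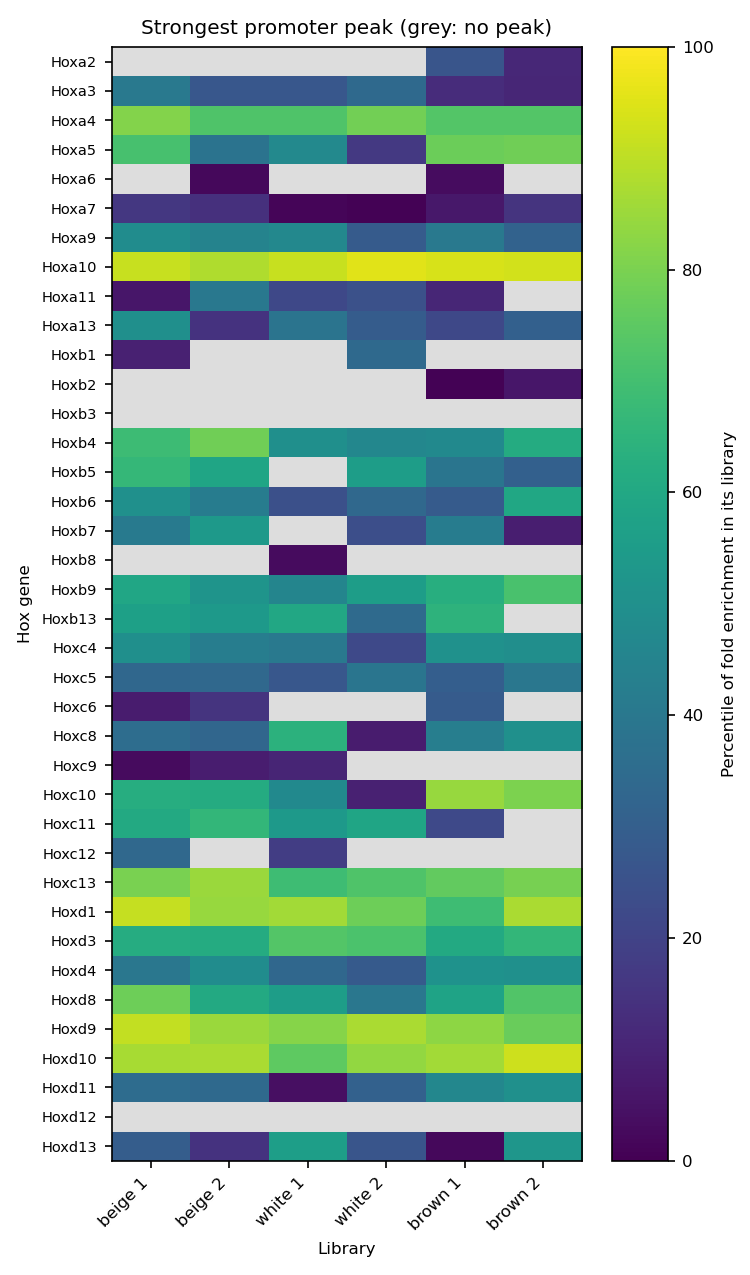
Height of the strongest promoter peak of each of the 38 Hox genes (rows) in each library (columns), as the percentile of its fold enrichment among all peaks of that library. Grey cells are promoters without a peak: Hoxa2 and Hoxb2 have color only in the brown columns, and Hoxb3 and Hoxd12 are grey throughout.

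Conditions were compared by presence, calling a promoter when both libraries of one condition and neither of the other had a peak. With 2 libraries against 2, no exact permutation test can reach the usual threshold, and so no p is given. Brown was called against beige at Hoxa2 and Hoxb2, 2 of 38 or 5.26%, where 0.343% of all genes were called, and against white at the same 2 genes, where the background was 0.485%. Against all 4 inguinal libraries together these 2 remained, over a background of 0.160%. Beige was called against brown at Hoxc9 (2.63%, background 0.600%) and against white at Hoxc6 (2.63%, background 0.531%). No Hox gene was called in white against beige (background 0.407%), in white against brown (0.545%) or in both inguinal conditions against brown (0.188%). With counts of 0 to 2 of 38, these shares rest on single genes.

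Hoxa2, which patterns the hindbrain and the second pharyngeal arch, carried the firmer of the brown calls. Its peak stood at −308 bp in brown replicate 1 and at −287 bp in replicate 2, at percentiles 26.4 and 11.1 of peak height. The −log10 q values were 18.3 and 9.26, far above the authors' threshold. No beige or white library had a peak there. Hoxb2, a gene of the hindbrain and of its cranial nerves, had weak peaks in coding exon sequence, with percentiles 0.588 and 6.18 and −log10 q values of 2.37 and 4.23. These lay near the threshold of the lists, and the call was lost at a q value under 1e-05, in lists of equal length, with a promoter of 3 kb and when any overlap with the promoter counted. Hoxa2 kept its call under those settings and lost it, among all that were tried, in promoters of 250 bp, since its summits lie farther out.

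Hoxc9, a thoracic gene used as a marker of subcutaneous as against brown fat, had percentiles of 2.97 and 8.03 in beige and 10.5 in white replicate 1. White replicate 2 and both brown libraries had no peak with its summit within 1 kb. The white pair was thus split, with replicate 2 like the brown libraries in lacking such a peak. A region with its summit at −1002 bp, just outside that distance, was open in all inguinal libraries and in brown replicate 1. It stood at 5.84 and 4.80 in beige, 32.6 and 12.8 in white and 16.3 in brown replicate 1. The Hoxc9 call was lost with a promoter of 3 kb and when any overlap with the promoter counted. Hoxc6, also a thoracic gene, had percentiles of 7.54 and 14.9 in beige and 28.7 in brown replicate 1 and was closed in the 3 others, so beige and white differed here while the brown replicates disagreed.

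Among posterior genes, Hoxc11 and Hoxa11 were open in all inguinal libraries and in brown replicate 1. Hoxc11, active in the lumbosacral region and hindlimb, stood at percentiles 60.6 and 66.1 in beige, 53.6 and 58.8 in white and 22.1 in brown replicate 1, with none in replicate 2. Its inguinal peaks were also wide, 832 to 1018 bp, whereas the strongest of brown replicate 1 spanned 160 bp and a further one 155 bp. Hoxa11, needed for the forearm and the kidney, gave 5.87 and 39.9 in beige, 21.8 and 24.9 in white and 10.7 in brown replicate 1. For this gene the single brown value fell inside the inguinal range. Hoxb13, of the prostate and tail, was lacking in brown replicate 2 alone and was otherwise between 34.7 and 64.6, with its highest value in brown replicate 1. Hoxc12, next to Hoxc13 at the posterior end, was open in beige replicate 1 (33.6) and white replicate 1 (18.0), so each inguinal pair was split and brown had none.

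Further genes were split within a condition and allowed no call. Hoxb5 was at 66.7 and 58.9 in beige, 55.8 in white replicate 2 and 38.8 and 30.5 in brown, and Hoxb7 at 40.7 and 54.1, 24.2, and 42.0 and 8.30. Both are genes of the neck and upper trunk, and both were closed only in white replicate 1. Hoxa6 had peaks of low height in beige replicate 2 (2.27) and brown replicate 1 (3.33), Hoxb8 in white replicate 1 alone (3.10), and Hoxb1, a hindbrain gene, in beige replicate 1 (9.09) and white replicate 2 (34.1). At Hoxb5 the beige pair lay above the brown pair, and at Hoxb7 beige and brown overlapped. With an absent peak counted as lowest, beige lay above white at both genes. At Hoxa6, Hoxb8 and Hoxb1 the conditions overlapped or were split.

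Peak height was ranked within each library, because fold enrichment is relative to the local background of that library and Hox clusters are dense in open sites. The median percentile of the strongest promoter peak of Hox genes lay between 34.2 (white replicate 2) and 52.7 (brown replicate 2). Over all genes with a promoter peak it was 84.4 to 89.7. Hox promoters were thus open in all 6 libraries about as often as others, but their peaks stood lower in each library. The highest were those of Hoxa10 (88.1 to 95.4), of Hoxd9 (77.0 to 90.8) and of Hoxd10 (75.1 to 92.2), all posterior, and of Hoxd1 (69.1 to 91.4).

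Both brown libraries ranked above all 4 inguinal ones at 7 of the 36 Hox genes with a peak (19.4%), where 14.6% of all genes with a peak did, and below at 2 (5.56% against 5.20%). The shares were near the background, so they say nothing particular of Hox genes. Mean promoter rank did not follow the order along the clusters. Brown was higher at 4 and lower at 6 of 10 anterior genes. It was higher at 8 and lower at 3 of 11 central genes, and higher at 6 and lower at 9 of 15 posterior genes. Over all 15605 genes with a peak, brown was higher at 10033 and lower at 5572. Hoxa5, which acts in the lung and the neck, had percentiles of 70.8 and 38.2 in beige, 46.9 and 16.5 in white and 77.5 and 78.5 in brown. Its strongest promoter peak spanned 952 and 1194 bp in brown and 238 to 705 bp in the inguinal libraries. Every inguinal library had further promoter peaks there, of 150 to 300 bp, and brown replicate 1 had one of 204 bp. These widths therefore compare single intervals and not all open bases. Hoxc10, a lumbar gene known from subcutaneous fat, stood at 62.3 and 61.5 in beige, 47.6 and 9.11 in white and 84.5 and 80.1 in brown. By fold enrichment both genes ranked highest in the brown libraries. Ranked by −log10 q, Hoxa5 kept this place and Hoxc10 lost it, with 86.2 and 88.9 in beige against 81.7 and 79.9 in brown. Hoxb9 lost it as well. The other genes above were Hoxa2, Hoxb2, Hoxb9, Hoxd4 and Hoxd11, and those below were Hoxc11 and Hoxa3, a gene of thymus and parathyroid formation. The single Hoxa3 start site used here lies 50.7 kb from the anterior end, among the central genes. Hoxc8, at the border of thorax and lumbar region, was at 35.9 and 33.1 in beige, 64.4 and 7.79 in white and 42.7 and 50.2 in brown, and the groups overlapped.

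Beige ranked above white at 14 of the 36 genes (38.9%, against 26.8% of all genes) and below at 2 (5.56%, against 18.5%), Hoxa10 and Hoxd3. The 14 came from all clusters, with Hoxb4 to Hoxb7 among them, and an absent peak counted as lowest. Hoxb4, linked to blood stem cells, had percentiles of 68.7 and 78.4 in beige against 49.7 and 46.3 in white. White replicate 2 had the lowest Hox median of the 6 libraries, and its part in these counts was not tested.

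Cover by peaks along the clusters was compared next between brown and inguinal adipocytes. Peaks covered 4.80% and 5.29% of the bases of the posterior sections in brown, against 7.67% and 8.81% in beige and 6.69% and 6.81% in white. Brown was below all 4 inguinal libraries here. It was also below them in the 50 kb flanks beyond the posterior ends (2.05% and 1.46% against 2.55% to 3.31%). The lower cover was thus not confined to the cluster spans. In the anterior flanks the groups overlapped (3.85% and 3.04% in brown, 3.30% to 4.25% in inguinal libraries). In the anterior sections the values were 6.96% and 7.20% in brown, 6.83% and 8.06% in beige and 5.81% and 6.47% in white, so that the groups overlapped. Brown lists were shorter, and when cover was set relative to all bases under peaks of the library, the anterior sections held 262 and 299 bases per Mb of peaks in brown against 226 to 258 in inguinal libraries, while the posterior ones held 269 and 327 against 374 to 419. Summed over the 4 clusters, brown was after that scaling above in the anterior sections, narrowly (262 against 258), and below in the posterior ones. Single clusters did not all show both differences, as given below. In the central sections brown (11.8% and 9.79%) lay below beige (12.8% and 13.8%) and overlapped white (9.81% and 10.3%). After scaling, the central sections held 323 and 294 bases per Mb of peaks in brown. Brown then overlapped beige (332 and 320) and lay above white (276 and 276).

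The ratio of posterior to anterior covered bases was taken within each library, so that the total cover of a library cancels, although its value still moved with the length of the list. Over the 4 clusters it was 1.67 and 1.63 in beige, 1.71 and 1.57 in white and 1.03 and 1.09 in brown, with means of 1.65 ± 0.0322 (SD, n = 2), 1.64 ± 0.102 (SD, n = 2) and 1.06 ± 0.0481 (SD, n = 2). The gap between depots exceeded the spread of replicates, and beige and white overlapped. With 2 libraries against 4, no exact permutation test of these values can pass the usual threshold either, so the separation is a description of 6 libraries. Brown lay below every inguinal library in each cluster. The gap was widest in Hoxa, with 0.905 and 0.884 in brown against 2.41 to 2.55. In Hoxc the values were 1.29 and 2.14 against 2.22 to 3.20, in Hoxd 1.36 and 1.20 against 1.46 to 1.83, and in Hoxb 0.738 and 0.762 against 0.803 to 1.01. The last 3 gaps were small, and those of Hoxb and Hoxc closed in stricter or equally long lists, as did that of Hoxd at a q value under 1e-05. The Hoxa gap and that over all clusters did not.

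**Figure D2:**
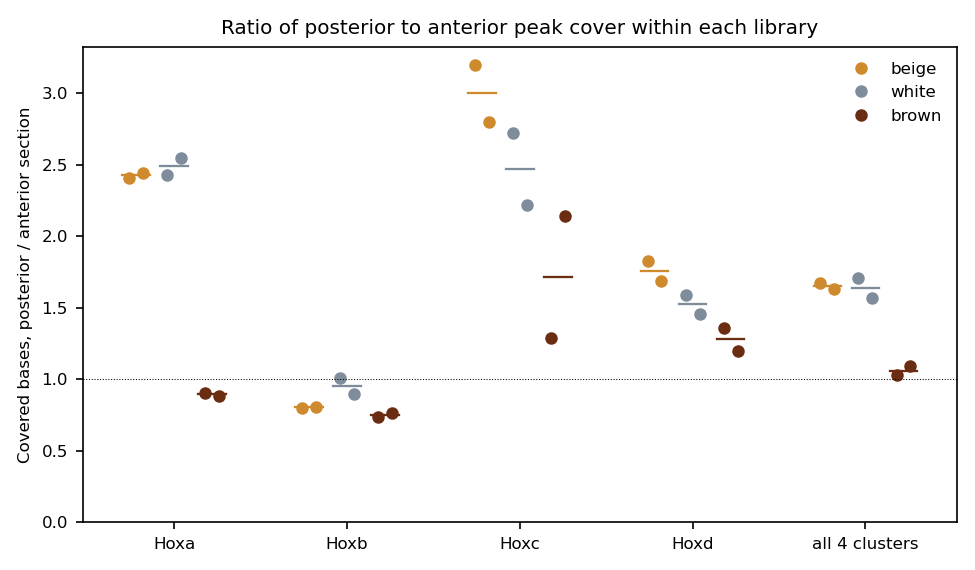
Bases covered by peaks in the posterior section divided by those in the anterior section, for each cluster and for all 4, with 1 point per library and a line at the mean of each pair. The brown points lie below all inguinal points, by the widest margin in Hoxa (0.905 and 0.884 against 2.41 to 2.55).

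Both ends contributed in Hoxa. Its posterior section, from Hoxa9 to Hoxa13, was covered at 7.32% and 5.89% in brown, 12.1% and 14.8% in beige and 10.3% and 11.4% in white. Its anterior section was covered at 9.29% and 7.66% in brown, 5.77% and 6.99% in beige and 4.88% and 5.15% in white. Neither section overlapped between depots. In Hoxb and Hoxc only the posterior section set brown apart as lower, with 2.71% and 3.50% against 4.39% to 5.35% in Hoxb and 3.55% and 4.76% against 6.24% to 8.86% in Hoxc. In Hoxd the posterior sections overlapped (9.38% and 10.0% in brown, 7.71% to 10.2% in inguinal), and the anterior section was higher in brown, 4.92% and 5.97% against 3.47% to 4.33%. The Hoxc anterior section is short and holds Hoxc4 alone, and brown overlapped there.

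**Figure D3:**
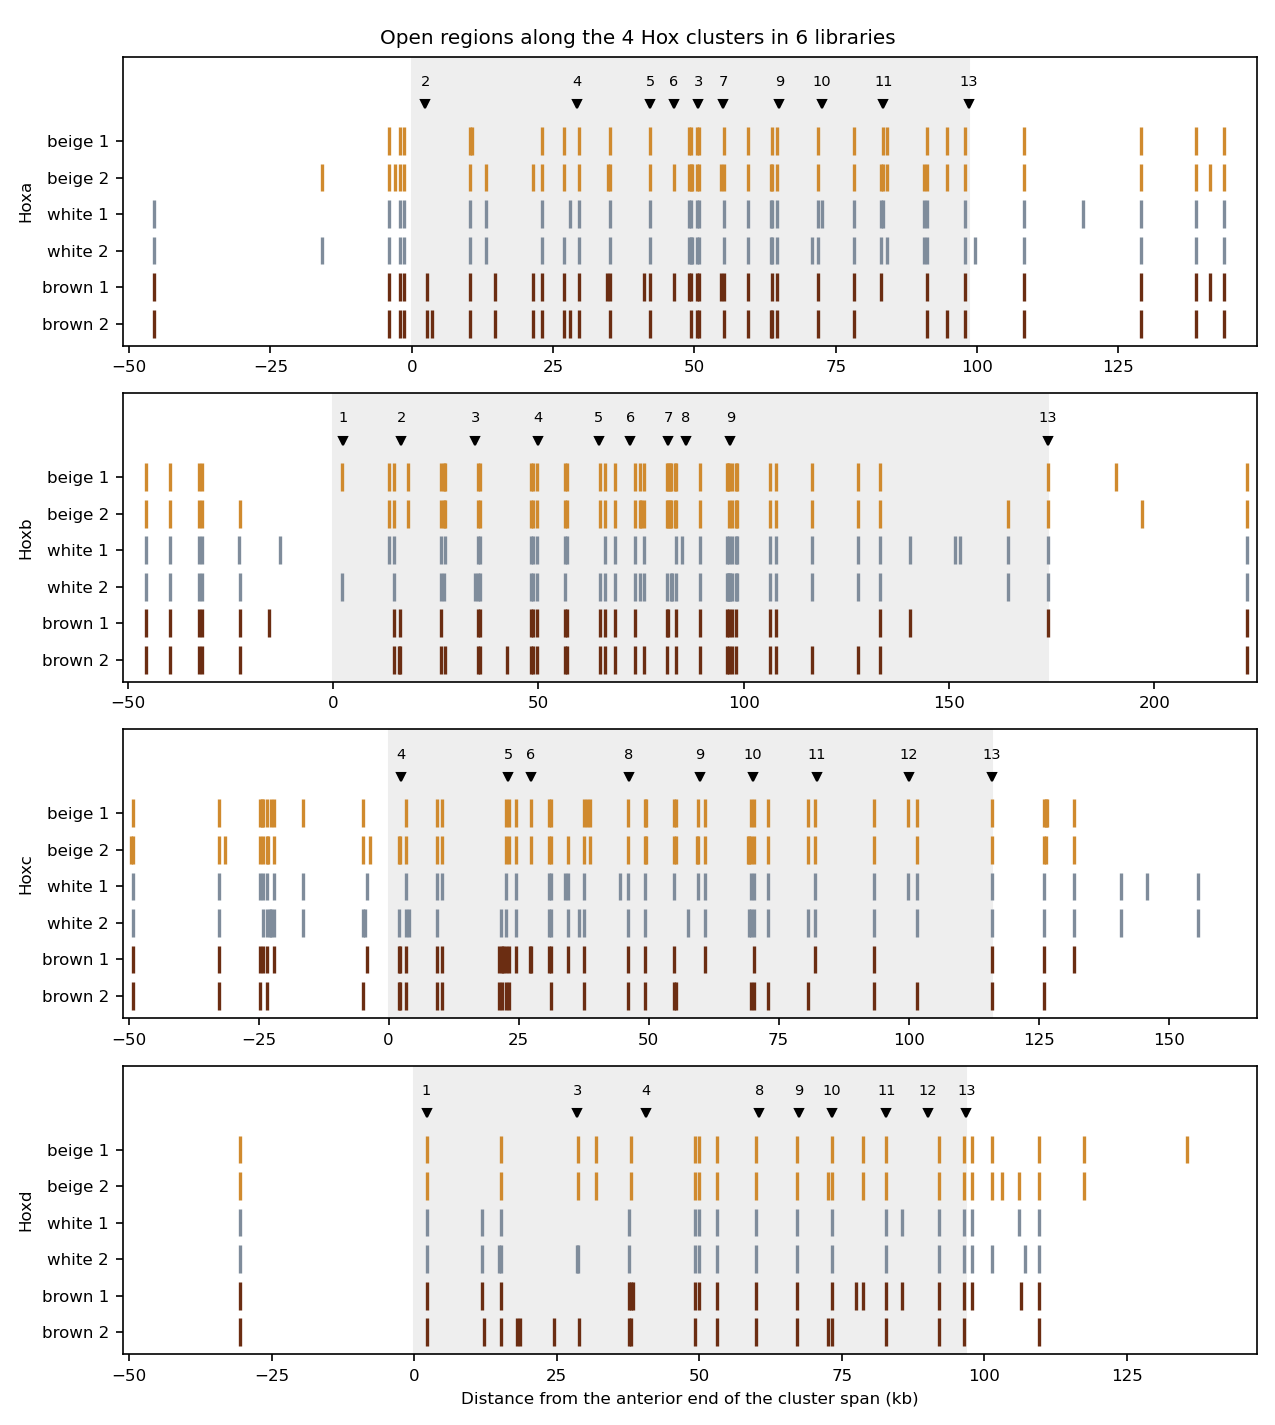
Position of each open region in the 6 libraries along the 4 clusters, in kb from the anterior end, with the cluster span in grey and a triangle with the paralog number at each start site. Brown marks near 2 and 15 kb of Hoxa are absent from the inguinal rows, and the inguinal rows hold more marks at the posterior ends of Hoxa and Hoxc.

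In windows of 10 kb counted from the anterior end, 77 bins held a peak. Brown cover was below that of all 4 inguinal libraries in 17 of them (22.1%), against 9.32% of all genomic bins with a peak, and above in 4 (5.19%, against 3.73%). Among bins with a peak in all 6 libraries the shares were 26.4% below, against 15.9%, and 3.77% above, against 3.12%. Of the posterior bins 10 of 23 were below and 0 above, and of the anterior bins 1 of 15 was below and 3 were above. Some of the bins below formed runs, in Hoxa from 70 to 110 kb and in Hoxc from 80 to 140 kb. Both runs reached past the span (98.5 and 116 kb) into the flank. The others were in Hoxb at 20, 70, 90 and 220 kb, in Hoxc at −40 and 60 kb and in Hoxd at 90 kb. The Hoxa bin at 70 kb, which holds the Hoxa10 start site, had 696 to 863 covered bases in brown and 1650 to 1913 in inguinal libraries, and the Hoxc bin at 80 kb, with the Hoxc11 start site, had 155 to 315 against 885 to 1168. The Hoxa bin at 0 kb, around Hoxa2, held 202 and 466 bases in brown and 0 in every inguinal library. Without brown replicate 1 the bins below numbered 30, and those above numbered 12 without brown replicate 2 and 9 without beige replicate 2.

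**Figure D4:**
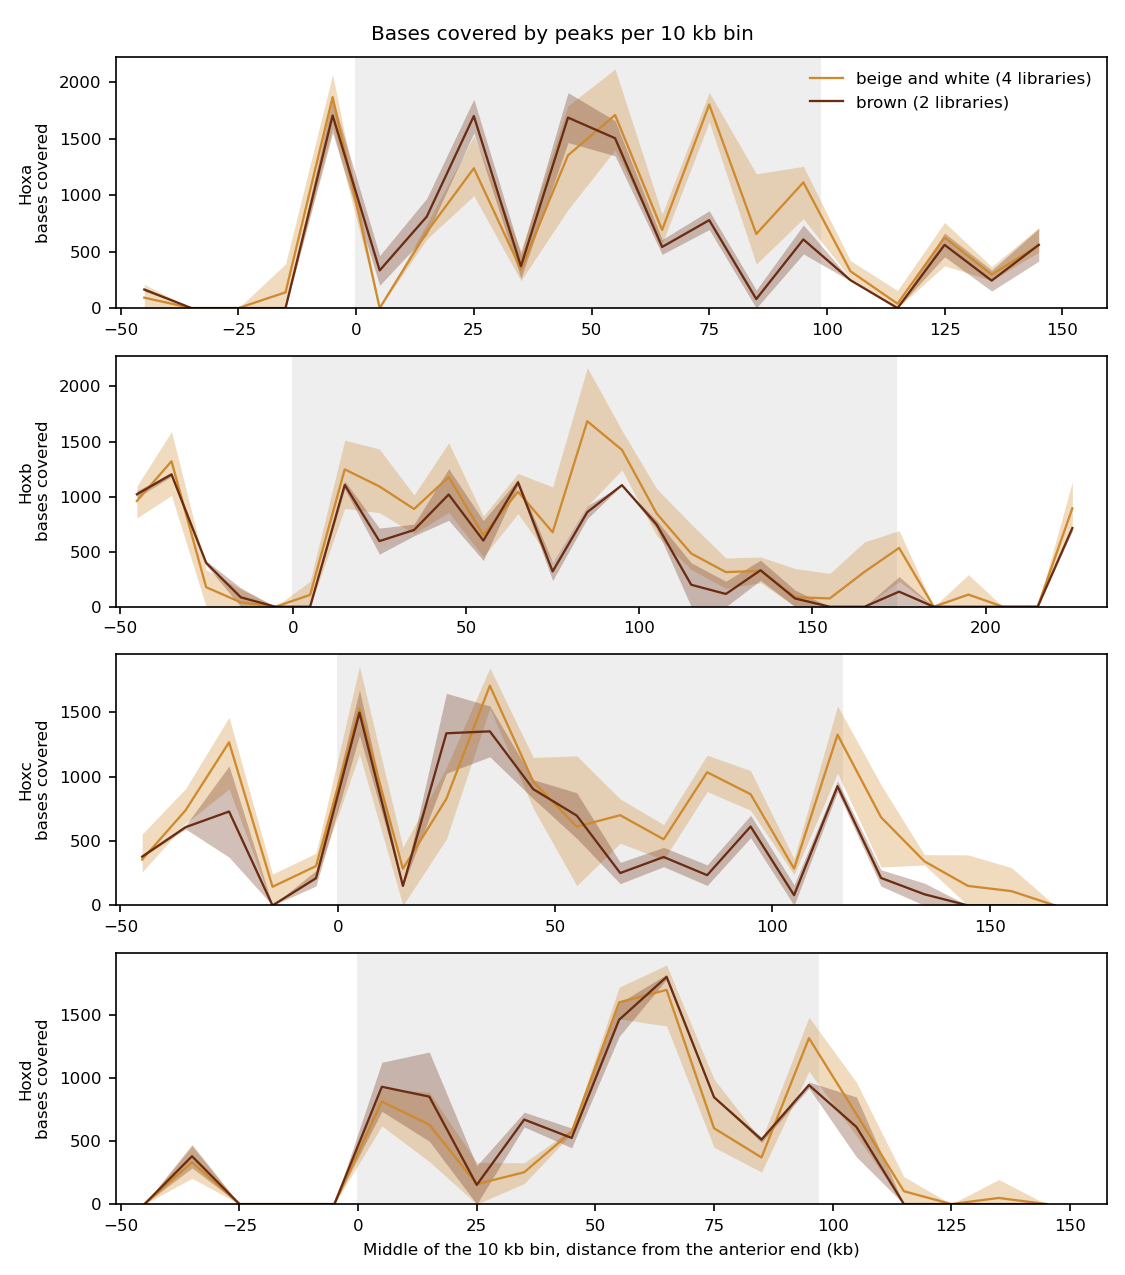
Bases covered by peaks in each 10 kb bin along the clusters, as the mean (line) and the range (band) of the 4 beige and white libraries and of the 2 brown libraries, with the cluster span in grey. The brown band lies under the inguinal one from 70 kb of Hoxa and from 80 kb of Hoxc onward to the end of the span and meets it over most of Hoxd.

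Of the 220 regions, 73 were open in all 6 libraries (33.2%, against 30.2% of all regions) and 57 in 1 library (25.9%, against 37.2%). Both beige libraries were open at 125 regions (56.8%, against 45.8%), both white at 104 (47.3%, against 39.4%) and both brown at 94 (42.7%, against 39.0%). Regions called in beige against white numbered 15 (6.82%, background 4.50%) and in white against beige 5 (2.27%, background 1.98%). For beige against brown they numbered 18 (8.18%, background 4.80%), and for brown against beige 7 (3.18%, background 1.56%). White was called against brown at 7 (3.18%, background 3.48%) and brown against white at 9 (4.09%, background 2.94%). Leaving out 1 library raised many of these counts, for instance to 36 for beige against brown without beige replicate 1 and to 33 for white against brown without white replicate 1.

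Brown was open against all inguinal libraries at 5 regions (2.27%, background 0.877%) and closed against them at 1 (0.455%, background 1.16%). Without either brown library the 5 became 13, and the 1 became 12 without brown replicate 1. None of the 5 lay in a posterior section: 3 were anterior and 2 central. They were the Hoxa2 and Hoxb2 sites, a site within Hoxa3 at −12297 bp of Hoxa2, intronic in GENCODE, and 2 sites at 1288 and 1816 bp of Hoxc5. The site within Hoxa3 had percentiles of 8.88 and 22.5, and those at Hoxc5 had 3.37 and 7.63 and then 7.09 and 0.181. All 5 were thus low peaks. The 1 region of the reverse kind, upstream of Hoxb9, stood at 9.69 and 1.36 in beige and 15.9 and 38.9 in white.

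Beige and white differed in regions within the clusters that did not fall at one end. Of the 15 regions of beige against white, 3 were anterior, 6 central, 4 posterior and 2 in the posterior flank, and they included peaks at −54 and −457 bp of Hoxb7 and at −77 bp of Hoxc6. The −54 bp site was at 40.7 and 54.1 in beige and at 42.0 in brown replicate 1. Peaks within Hoxd4, a neck gene, differed as well: a peak at 110 bp was called in beige and in brown against white, and a neighbouring one at 351 bp was called in white and in brown against beige. Beige thus had the nearer peak, white the farther one and brown both.

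Hox regions were richer in GC than others. The median GC content of the 201 bp around the summit was 58.7% in the 220 regions against 50.2% in all, and the observed to expected ratio of CpG was 0.624 against 0.215. Among regions open in all 6 libraries the values were 61.7% against 52.2% and 0.746 against 0.296. A posterior HOX motif (TTTATNG, both strands) was found in 24 Hox regions (10.9%, against 6.31% of all), but in 3 of the 73 open in all libraries (4.11%, against 5.48%). The CTCF consensus, of the factor that bounds chromatin loops, was found in 2 Hox regions (0.909%, against 3.18%). Both were in Hoxa and open in all 6 libraries, at −3093 bp of Hoxa7 and 296 bp of Hoxa10. Direct repeats of GGTCA as bound by retinoic acid receptors were found in 1 region with the spacing GGTCANNNGGTCA (0.455%, against 0.0884%) and in 0 with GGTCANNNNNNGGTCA (0.0889% of all). Motifs were counted separately where they overlapped.

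Most listed genes that work with Hox proteins or regulate the clusters were open in all 6 libraries. Of all protein-coding genes, 62.0% were. The 9 TALE cofactors, homeodomain proteins of the Pbx, Meis and Pknox families that bind DNA with Hox proteins, all had a promoter peak in all 6 libraries. Of 24 regulators of Hox clusters, 20 were open in all 6, among them Ezh2, Eed and Suz12 of the repressive Polycomb complex and Kmt2a of the activating Trithorax group. Cdx1 and Kdm6b had none, and Cdx2 and Cdx4 had one in 2 libraries each. Of 13 noncoding and bordering genes of the clusters, Hotairm1 and Hoxd3os1 were open in all 6 and 6 in none, Hotair included. Evx1, which borders Hoxa at its posterior end, was open in beige (33.4 and 42.0) and brown (at most 10.5) and in neither white library.

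Overlap of covered bases between libraries, as a Jaccard index in the cluster windows, was 0.708 for the beige pair, 0.576 for the white and 0.585 for the brown pair. Between conditions its mean was 0.579 for beige and white, 0.541 for beige and brown and 0.520 for white and brown. The white pair was no more alike than beige and white libraries were. The 4 single values of these comparisons overlapped (0.553 to 0.595 for beige and white, 0.523 to 0.564 for beige and brown). Across the genome the means were 0.586 for beige and white and 0.603 for beige and brown, and their single values overlapped too (0.563 to 0.603 and 0.567 to 0.634).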

How the data were processed

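Peak lists of 6 ATAC-seq libraries were used, 2 per condition. The authors used Trimmomatic 0.36 for adaptors, BWA 0.7.17 for alignment (mm10) and MACS2 2.2.8 for a separate peak list per library at q under 0.05. These versions are stated for beige and white, and those for brown are not given in the sources used here. The deposited fold enrichment is a ratio over the local background, and the deposited −log10 q belongs to a summit. Both were used only within a list, for ranks and thresholds. The authors' −log10 p and score columns were not used. Intervals were counted once, at the summit of highest −log10 q. Start sites were those of protein-coding transcripts of GENCODE M21 (basic set). Section boundaries lay midway between coding sequences. The members and lists were chosen with earlier results of these data known. Named were all members open in 1 to 5 libraries or called, and Hoxa5, Hoxc8, Hoxc9 and Hoxc10. Alternatives covered q value, list length, promoter, flank, overlap and bin width, and each library left out. Python 3.11.15 with pandas 2.3.3 and numpy 2.4.6 was used, and merging and calling were tested on simulated data.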

Additional observations from a re-analysis of the deposited data

How the results depend on the processing

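No paired analysis was possible because conditions were compared by presence of peaks, without a fitted model. Of 297 alternatives, 201 left the value near the reported one and 96 moved it. At a q value under 1e-05, promoters called were 2 in beige against white, and 1 each in brown against beige, white against brown and brown against inguinal. Regions were then 1 in white against beige, 4 in brown against beige, 4 in inguinal against brown and 3 in brown against inguinal. Covered shares of the spans were then 6.45% in white and 6.18% in brown, and the posterior to anterior ratio was 1.72 in beige and 1.12 in brown. Lists of equal length gave 1 promoter in brown against beige, white and inguinal, 0 regions in inguinal against brown, 7.02% cover in white and a ratio of 1.73 in beige. Promoters of 250 bp were open in both libraries at 15 Hox genes in white and 17 in brown, and gave 5 calls in beige against white, 1 in white against beige, 2 in beige against brown, 1 in white against brown, 4 in brown against white and 0 in brown against beige or inguinal. Promoters of 3 kb gave 0 calls in beige against white or brown, and 1 in brown against beige, white and inguinal. Counting any overlap of interval and promoter gave 0 in beige against brown and 1 in brown against beige, white and inguinal. Without flanks, regions were 2 in white against beige and 4 in white against brown, and with 100 kb flanks 2 in inguinal against brown. Requiring an overlap of 0.5 of both peaks gave 8 in white against beige, 29 in beige against brown, 13 in brown against beige, 14 in white against brown and 5 in inguinal against brown. Ranking by −log10 q put 5 promoters in brown below all inguinal, and those above no longer held Hoxc10 and Hoxb9.

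Further settings of the posterior to anterior ratio were chosen after seeing the data. Splitting each span at its middle gave 1.02 in beige, 1.16 in white and 0.754 in brown, and counts of peaks gave 1.56 in beige and 0.978 in brown. Under these, and in stricter and equally long lists, brown stayed below all inguinal libraries over the 4 clusters and in Hoxa. In Hoxb it overlapped them under each of these 4 settings.

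Leaving out each library in turn widens calls by construction, since the remaining library of its condition decides alone. Promoters then ranged from 1 to 5 in beige against brown, 1 to 3 in beige against white, 0 to 1 in white against beige, 0 to 3 in white against brown, 2 to 4 in brown against white and 0 to 3 in inguinal against brown, and stayed at 2 in brown against beige and against inguinal. Regions ranged from 18 to 36 in beige against brown, 15 to 32 in beige against white, 5 to 19 in white against beige, 7 to 19 in brown against beige, 7 to 33 in white against brown, 9 to 23 in brown against white, 2 to 12 in inguinal against brown and 5 to 13 in brown against inguinal. Bins ranged from 4 to 12 above and 18 to 30 below, and the ratio in white from 1.57 to 1.71. Except where construction explains a change, the cause was not tested.

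Peak lists without read counts limit all of this: absence of a peak is not absence of open chromatin, the Hoxb2 call rests on peaks near the threshold, and the depth of the brown libraries is not given in the sources used here.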
